A study of Mus musculus with 12 samples.

Results

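The genes described here serve the MHC class I pathway, which shows peptides from inside the cell to cytotoxic T cells. They are the 3 inducible catalytic subunits of the proteasome (Psmb8, Psmb9 and Psmb10), the peptide transporter subunit Tap1, the class I light chain B2m, the classical heavy chains H2-K1 and H2-D1, and the transcription regulators Nlrc5 and Irf1. They were taken by symbol from the expression table, 9 of 35854 genes in all, and each had a row in the table. They were picked with their values in all 12 libraries known. Their levels and differences are therefore a description, given with standard errors and without p-values.

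The cells were cardiac precursors made from C57BL/6 mouse embryonic stem cells. All 3 lines expressed Tir1, the plant F-box protein that lets auxin trigger the destruction of a protein carrying an auxin-inducible degron (AID) tag. The tagged protein was SUZ12, a core subunit of Polycomb repressive complex PRC2, or MTF2 or JARID2, accessory subunits of that complex. PRC2 places the repressive methyl marks on lysine 27 of histone H3. Each line was sequenced with auxin (50 µM indole-3-acetic acid) and untreated. The 6 groups of 2 libraries were SUZ12-AID with auxin, SUZ12-AID untreated, MTF2-AID with auxin, MTF2-AID untreated, AID-JARID2 with auxin and AID-JARID2 untreated. Differentiation ran through 48 h as aggregates, 43 h as reaggregates and 32 h as a monolayer. When auxin was added and for how long is not given in the sources used here. There was 1 line for each subunit and no untagged line with auxin among the libraries, so the tag, the clone and the subunit cannot be told apart. The labels do not say that the 2 libraries of a group came from separate cultures, so every error and p-value measures the spread between these libraries only. Each standard error of a fold change pools this spread over all 6 groups, drawn toward that of other genes of like level. It is therefore the same for a gene in all 3 lines.

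Class I molecules load peptides that the proteasome has cut and that the TAP transporter has carried into the endoplasmic reticulum. Interferon-gamma induces most of this machinery with IRF1 among the factors it acts through, and the inducible proteasome subunits then take the places of the constitutive ones. NLRC5 acts on class I promoters, which carry a conserved block of W/S, X and Y elements. Embryonic stem cells and early embryonic cells are known for low class I levels.

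Promoters of some members are shown as background, and whether their motifs bear on the levels was not tested. Of the 9 genes, 8 had promoter windows in RefSeq for GRCm38.p6, the build also called mm10, and Nlrc5 was not matched. The sequences below run 5′ to 3′ on the gene's own strand, with capitals marking matches to a searched motif. H2-K1 is on the minus strand at chr17:34000348-34000597, H2-D1 on the plus strand at chr17:35262844-35263093, B2m on the plus strand at chr2:122147437-122147686 and Irf1 on the plus strand at chr11:53769764-53770013. Psmb9 and Tap1 lie head to head, and the stretch between their RefSeq starts, chr17:34187331-34187555, is printed on the plus strand, the strand of Tap1.
H2-K1: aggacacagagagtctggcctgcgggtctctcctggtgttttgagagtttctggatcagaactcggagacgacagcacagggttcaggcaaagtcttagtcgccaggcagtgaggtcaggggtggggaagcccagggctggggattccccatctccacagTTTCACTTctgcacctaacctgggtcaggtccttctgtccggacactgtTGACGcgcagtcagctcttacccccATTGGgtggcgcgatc
H2-D1: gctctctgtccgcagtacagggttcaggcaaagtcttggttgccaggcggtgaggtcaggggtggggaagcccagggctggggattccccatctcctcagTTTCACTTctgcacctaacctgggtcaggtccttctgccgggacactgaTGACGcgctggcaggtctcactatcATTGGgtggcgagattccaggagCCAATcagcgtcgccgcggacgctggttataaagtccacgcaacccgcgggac
B2m: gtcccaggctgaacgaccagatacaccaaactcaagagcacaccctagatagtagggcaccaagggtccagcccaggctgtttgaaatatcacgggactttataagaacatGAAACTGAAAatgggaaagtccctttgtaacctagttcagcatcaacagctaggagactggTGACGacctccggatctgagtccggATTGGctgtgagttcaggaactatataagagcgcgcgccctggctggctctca
Irf1: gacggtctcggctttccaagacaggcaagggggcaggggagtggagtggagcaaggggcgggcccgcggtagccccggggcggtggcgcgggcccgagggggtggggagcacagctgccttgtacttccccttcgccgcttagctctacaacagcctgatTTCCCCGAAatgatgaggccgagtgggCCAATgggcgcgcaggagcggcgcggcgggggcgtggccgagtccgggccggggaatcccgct
between Psmb9 and Tap1: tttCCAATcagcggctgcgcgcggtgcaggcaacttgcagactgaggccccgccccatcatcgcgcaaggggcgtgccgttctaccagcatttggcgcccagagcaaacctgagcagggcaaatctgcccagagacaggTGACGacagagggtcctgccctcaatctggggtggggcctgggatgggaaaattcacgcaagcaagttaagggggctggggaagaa

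The letters searched, on both strands, were GAAA, NN and GAAA in a row (the interferon-stimulated response element, of which NN is any 2 bases), AANNGAAA (a shorter form that overlaps it and was added after the sequences were read), TTCNNNGAA (the STAT site), TGACG (the core of the X2 element) and CCAAT (the Y element). The 250 bases before the start of B2m held the interferon-stimulated response element from base 139 before the start, AANNGAAA within it, TGACG from base 78 and CCAAT from base 53. H2-K1 and H2-D1 each held AANNGAAA, TGACG and CCAAT in the same order. The stretch between Psmb9 and Tap1 held CCAAT and TGACG. Irf1 held TTCNNNGAA and CCAAT in the window printed and none of these motifs in its other RefSeq window. Psmb8 held TTCNNNGAA alone, and Psmb10 held none of the letters searched. Over all 32851 windows of the same length, the interferon-stimulated response element was found in 2.98%, AANNGAAA in 21.3%, TTCNNNGAA in 7.02%, TGACG in 17.8% and CCAAT in 33.8%.

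The class I genes sit on 4 chromosomes. Psmb9 (chr17:34181987-34187764, minus strand), Tap1 (chr17:34187553-34197225, plus strand) and Psmb8 (chr17:34197721-34201454, plus strand) are neighbours in GENCODE coordinates on mm10, with Tap2 just beyond them at chr17:34203527-34216321. H2-K1 (chr17:33996017-34000347, minus strand) and H2-D1 (chr17:35262730-35267499, plus strand) flank this block. B2m is at chr2:122147686-122153083, Irf1 at chr11:53770014-53778374, Nlrc5 at chr8:94434356-94527272 and Psmb10 at chr8:105935735-105938444. The annotated 5′ parts of Psmb9 and Tap1 overlap on opposite strands. The libraries kept strand, but whether counting used it is not given in the sources used here. Of the 50-base stretches in their annotated exons, 12.77% of those of H2-D1 and 9.633% of those of H2-K1 also occurred in another gene, most often H2-K1 for H2-D1 and H2-Q7 for H2-K1. Reads of these heavy chains could therefore be split between genes in ways the table does not show.

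Values are TPM, a transcript abundance scaled for library size and gene length, so that levels can be compared between genes. Whole reads recovered from the TPM values came to 10138590 to 17172428 per library, with 18963 to 21025 genes above 0. The degron acts on the protein, so the targeted transcripts do not check the labels. Suz12 had 106 and 109 TPM in SUZ12-AID with auxin, against 113 and 127 TPM untreated. Mtf2 had 26.0 and 24.7 TPM in MTF2-AID with auxin, against 22.4 and 21.7 TPM untreated. Jarid2 had 104 and 113 TPM in AID-JARID2 with auxin, against 45.3 and 43.5 TPM untreated. Of the cardiac precursor markers, Hand1 reached 2552 TPM, and the 12 markers summed to 1647 to 3017 TPM in all groups but AID-JARID2 with auxin, where they summed to 167 and 200.4 TPM. Hand1, also listed for trophoblast, made up most of these sums. In SUZ12-AID cells they were 1647 to 1814 TPM with auxin, against 2732 to 3017 TPM untreated. By the limma test below, 5 of the 11 markers tested rose there and 1 fell, where 15.1% and 4.05% of all genes tested did.

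In SUZ12-AID cells with auxin, H2-D1, Tap1, Psmb9, H2-K1, Psmb8 and B2m were all higher than in untreated cells, by log2 fold changes of 0.85 to 1.43, while Psmb10 and Irf1 overlapped between the groups. Counting Nlrc5, 7 of the 9 members were higher without overlap, 0 were lower and 2 overlapped. Over the 15662 genes tested, 34.0% were higher and 15.3% lower without overlap. The median log2 difference was 0.86 over the 9 members and 0.06 over all genes tested. In MTF2-AID cells with auxin, 6 members were higher without overlap, Tap1 and Nlrc5 were lower, and B2m overlapped, where 24.1% of all genes tested were higher and 21.8% lower. The median was 0.49 over the 9 members and 0.01 over all genes tested. In AID-JARID2 cells with auxin, Psmb8, Psmb9, Psmb10, H2-D1 and Irf1 were lower without overlap and the other 4 were higher, where 37.7% of all genes tested were higher and 35.0% lower. The median was -0.19 over the 9 members and 0.01 over all genes tested. The members were chosen on these contrasts, and nothing is read from the counts. In bulk RNA, fewer cells of a type and less RNA per cell cannot be told apart.

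**Figure D1:**
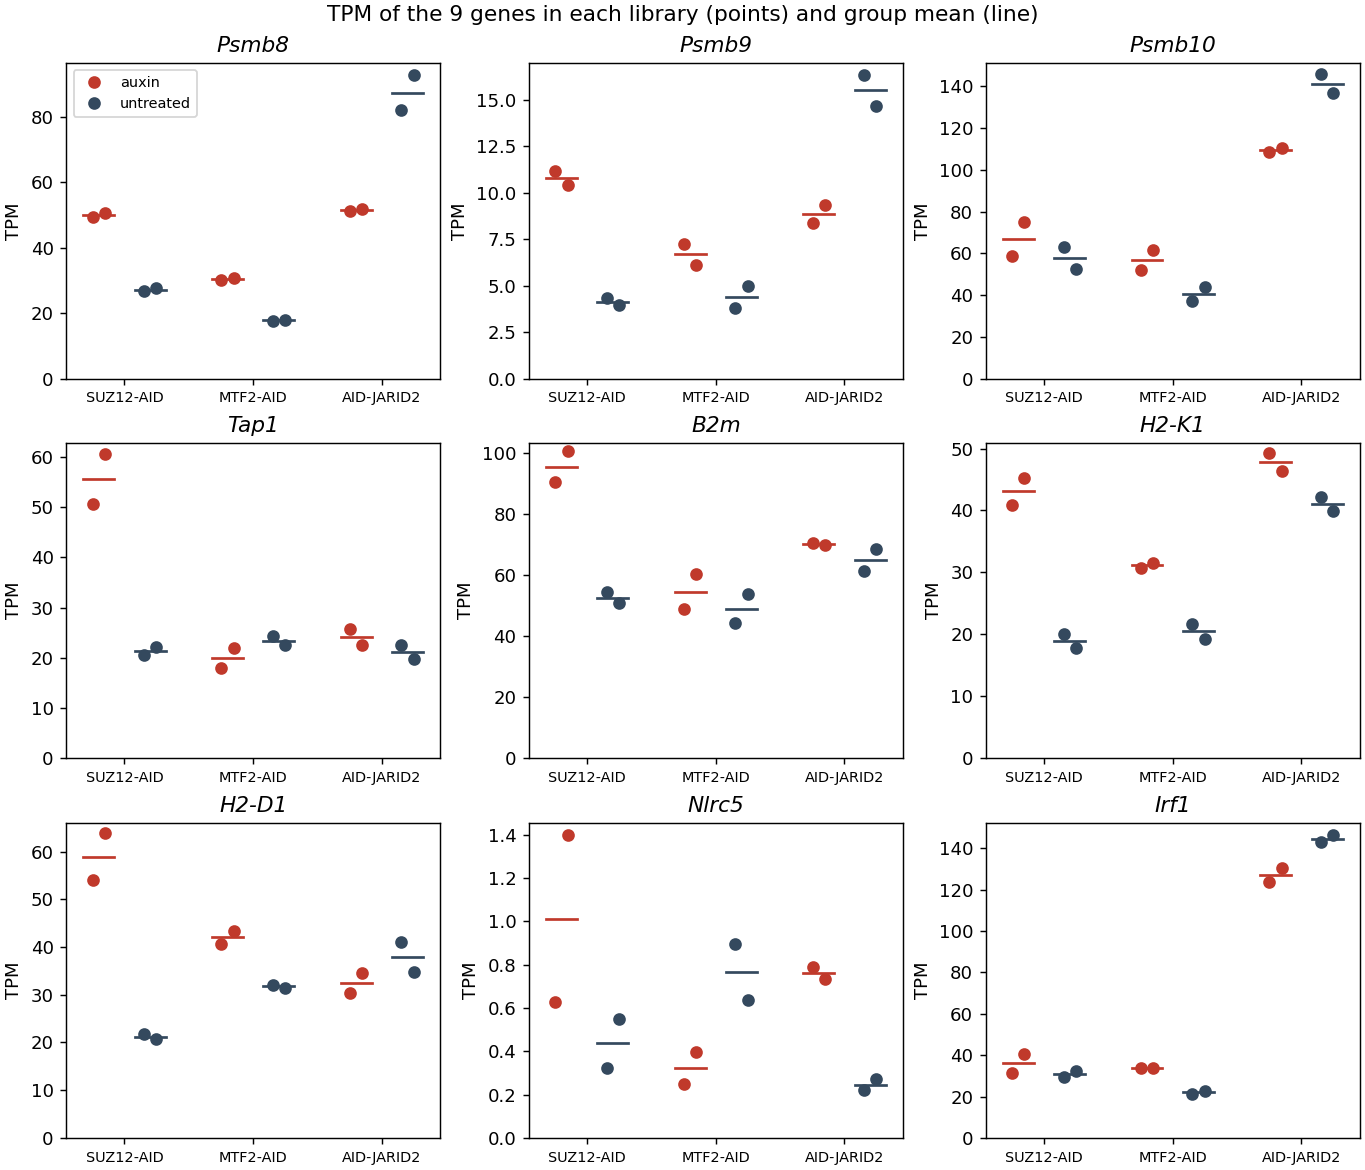
TPM (y axis) of each of the 9 genes in the 12 libraries, by line, with auxin (red) left of untreated (dark blue), and lines at the group means. Irf1 and the inducible proteasome subunits stood highest in untreated AID-JARID2 cells, whereas Tap1, B2m and H2-D1 stood highest in SUZ12-AID cells with auxin.

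Psmb8 encodes the inducible subunit β5i, which replaces the chymotrypsin-like constitutive subunit Psmb5. In SUZ12-AID cells it had 49.3 and 50.6 TPM with auxin, against 26.6 and 27.7 TPM untreated (log2 fold change 0.86, SE 0.0717). In MTF2-AID cells it had 30.1 and 30.6 TPM with auxin, against 17.7 and 17.8 TPM untreated (0.74, SE 0.0717). The auxin libraries lay above the untreated ones in both lines, and the members of each pair lay close together. In AID-JARID2 cells the order turned: Psmb8 had 51.2 and 51.8 TPM with auxin, against 82.0 and 92.7 TPM untreated (-0.75, SE 0.0717). No 2 neighbours in the order of its 6 group levels overlapped, with the highest group mean, untreated AID-JARID2, 4.91 times the lowest, untreated MTF2-AID.

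Psmb9 encodes β1i, which replaces Psmb6, and was the least abundant of the 3 inducible subunits in every library. SUZ12-AID cells with auxin had 11.1 and 10.4 TPM, against 4.33 and 3.94 TPM untreated (1.20, SE 0.14). MTF2-AID cells with auxin had 7.22 and 6.12 TPM, against 3.80 and 4.98 TPM untreated (0.52, SE 0.14). The gap in MTF2-AID cells was close to the distance between the libraries of a group. AID-JARID2 cells with auxin had 8.37 and 9.36 TPM, against 16.3 and 14.7 TPM untreated (-0.74, SE 0.14). These values rest on 16 to 90 recovered reads per library. The untreated MTF2-AID and SUZ12-AID levels overlapped at the low end of its order.

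Psmb10 encodes β2i, which replaces Psmb7, and lies away from the other subunit genes, on chromosome 8. In SUZ12-AID cells it had 58.8 and 74.8 TPM with auxin, against 63.0 and 52.5 TPM untreated (0.20, SE 0.134), and the groups overlapped. The fold change was 0.03 without SUZ12-AID auxin replicate 2 and 0.38 without auxin replicate 1. In MTF2-AID cells Psmb10 had 52.1 and 61.8 TPM with auxin, against 36.9 and 43.6 TPM untreated (0.49, SE 0.134). In AID-JARID2 cells it had 109 and 110.5 TPM with auxin, against 146 and 137 TPM untreated (-0.36, SE 0.134). Both AID-JARID2 groups stood above all 8 libraries of the other lines.

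Each inducible subunit was also set against its constitutive counterpart within a library. Psmb8 stood at 18.2% and 19.5% of the TPM of Psmb5 in SUZ12-AID cells with auxin, against 7.97% and 9.30% untreated. In MTF2-AID cells the share was 10.0% and 10.6% with auxin, against 6.72% in both untreated libraries. In AID-JARID2 cells it was 16.3% and 16.4% with auxin, against 26.8% and 29.9% untreated. The constitutive subunit was the more abundant in all 12 libraries. Psmb9 ranged between 0.617% and 2.55% of Psmb6, with the top in untreated AID-JARID2 and the bottom in untreated SUZ12-AID. Psmb10 ranged between 7.08% and 28.2% of Psmb7, with the top in untreated AID-JARID2 and the bottom in untreated MTF2-AID. A share within a library shows unequal change of the pair and does not show which of them changed. Psmb5 itself averaged 265 TPM with auxin and 316 TPM untreated in SUZ12-AID cells, and 294 and 265 TPM in MTF2-AID cells. In AID-JARID2 cells it averaged 315 TPM with auxin and 308 TPM untreated.

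**Figure D2:**
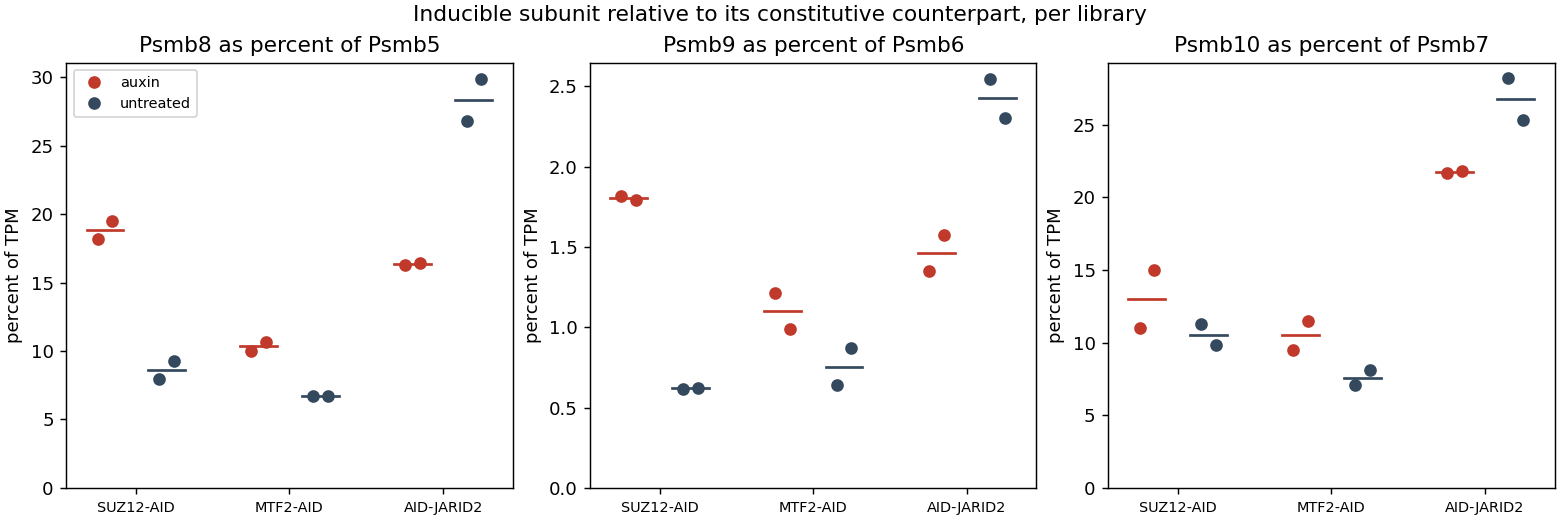
TPM of each inducible proteasome subunit as a percent of its constitutive counterpart (y axes, different scales) per library, with auxin (red) left of untreated (dark blue), and lines at the group means. The ratios of Psmb8 and Psmb9 were higher with auxin in SUZ12-AID and MTF2-AID cells and lower with auxin in AID-JARID2 cells.

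Tap1 encodes a subunit of the ATP-driven transporter that moves peptides into the endoplasmic reticulum, and pairs there with TAP2. With auxin, SUZ12-AID cells had 50.7 and 60.7 TPM, against 20.6 and 22.1 TPM untreated (1.34, SE 0.124). With auxin, MTF2-AID cells had 17.9 and 21.9 TPM, against 24.2 and 22.6 TPM untreated (-0.23, SE 0.124). With auxin, AID-JARID2 cells had 25.6 and 22.6 TPM, against 22.5 and 19.8 TPM untreated (0.18, SE 0.124). SUZ12-AID with auxin stood alone, and the other 5 groups ran between 17.9 and 25.6 TPM. Within that range, AID-JARID2 with auxin overlapped untreated MTF2-AID, untreated SUZ12-AID overlapped untreated AID-JARID2, and untreated AID-JARID2 overlapped MTF2-AID with auxin. The MTF2-AID value was -0.09 without its auxin replicate 1 and -0.36 without its auxin replicate 2. The AID-JARID2 value was 0.27 without its auxin replicate 2 and 0.09 without its untreated replicate 2.

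The RefSeq starts of Tap1 and its neighbour Psmb9 have 225 bases between them, and the levels of the pair differed across the lines. Psmb9 was highest in untreated AID-JARID2 cells, where Tap1 was among its lowest levels. Tap1 stood at 64.9% and 63.3% of Tap2 in untreated AID-JARID2 cells, the lowest of any group. In untreated MTF2-AID cells it stood at 324% and 321% of Tap2, the highest. The CCAAT and TGACG matches printed above lie in the stretch that both genes share.

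B2m encodes β2-microglobulin, the light chain that every class I heavy chain needs to fold. Its level was 90.4 and 100.5 TPM in SUZ12-AID cells with auxin, against 54.5 and 50.7 TPM untreated (0.85, SE 0.117). Its level was 48.7 and 60.3 TPM in MTF2-AID cells with auxin, against 44.3 and 53.6 TPM untreated (0.15, SE 0.117), with overlapping groups. Its level was 70.5 and 69.8 TPM in AID-JARID2 cells with auxin, against 61.3 and 68.4 TPM untreated (0.11, SE 0.117). That value was 0.04 without untreated replicate 1 and 0.19 without untreated replicate 2. The highest of its group means was 1.95 times the lowest, the narrowest range of the 9 genes.

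H2-K1 encodes the classical class I heavy chain K. SUZ12-AID cells with auxin had 40.9 and 45.3 TPM, against 20.05 and 17.8 TPM untreated (1.15, SE 0.0903). MTF2-AID cells with auxin had 30.8 and 31.6 TPM, against 21.6 and 19.3 TPM untreated (0.59, SE 0.0903). AID-JARID2 cells with auxin had 49.3 and 46.4 TPM, against 42.1 and 40.0 TPM untreated (0.22, SE 0.0903). The auxin libraries lay above the untreated ones in all 3 lines, which held for no other of the 8 members fitted. SUZ12-AID with auxin and untreated AID-JARID2 overlapped, as did untreated MTF2-AID and untreated SUZ12-AID at the low end.

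H2-D1 encodes the classical class I heavy chain D and had the largest SUZ12-AID difference of the 8 members fitted. With auxin, SUZ12-AID cells had 53.9 and 63.9 TPM, against 21.7 and 20.7 TPM untreated (1.43, SE 0.107). With auxin, MTF2-AID cells had 40.7 and 43.4 TPM, against 32.1 and 31.5 TPM untreated (0.39, SE 0.107). With auxin, AID-JARID2 cells had 30.5 and 34.6 TPM, against 41.0 and 34.8 TPM untreated (-0.21, SE 0.107). The last pair of groups was separated by the gap between 34.6 and 34.8 TPM alone. H2-K1 stood at 162% and 134% of H2-D1 in AID-JARID2 cells with auxin, against 103% and 115% untreated. In SUZ12-AID cells H2-K1 stood at 75.8% and 70.9% of H2-D1 with auxin, against 92.4% and 86.0% untreated.

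Irf1 encodes the interferon-induced transcription factor named above and varied the most between groups, 6.57-fold from the lowest mean to the highest. In SUZ12-AID cells it had 31.3 and 40.6 TPM with auxin, against 29.5 and 32.1 TPM untreated (0.21, SE 0.105), with overlapping groups. The value was 0.03 without SUZ12-AID auxin replicate 2 and 0.39 without auxin replicate 1. In MTF2-AID cells Irf1 had 33.7 and 33.8 TPM with auxin, against 21.3 and 22.8 TPM untreated (0.59, SE 0.105). In AID-JARID2 cells it had 124 and 130.4 TPM with auxin, against 143 and 146 TPM untreated (-0.19, SE 0.105). All 4 AID-JARID2 libraries stood above all 8 others, whose highest was 40.6 TPM.

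Nlrc5 encodes the class I transactivator and was low, with 9 to 49 recovered reads per library, and was not fitted because it reached 1 TPM in fewer than 2 libraries. It had 0.629 and 1.40 TPM in SUZ12-AID cells with auxin, against 0.325 and 0.549 TPM untreated. In MTF2-AID cells it had 0.249 and 0.398 TPM with auxin, against 0.893 and 0.638 TPM untreated. In AID-JARID2 cells it had 0.787 and 0.735 TPM with auxin, against 0.219 and 0.273 TPM untreated. The auxin libraries lay above the untreated ones in the SUZ12-AID and AID-JARID2 lines and below them in the MTF2-AID line, and untreated AID-JARID2, where Irf1 and the inducible subunits were highest, had its lowest level.

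**Figure D3:**
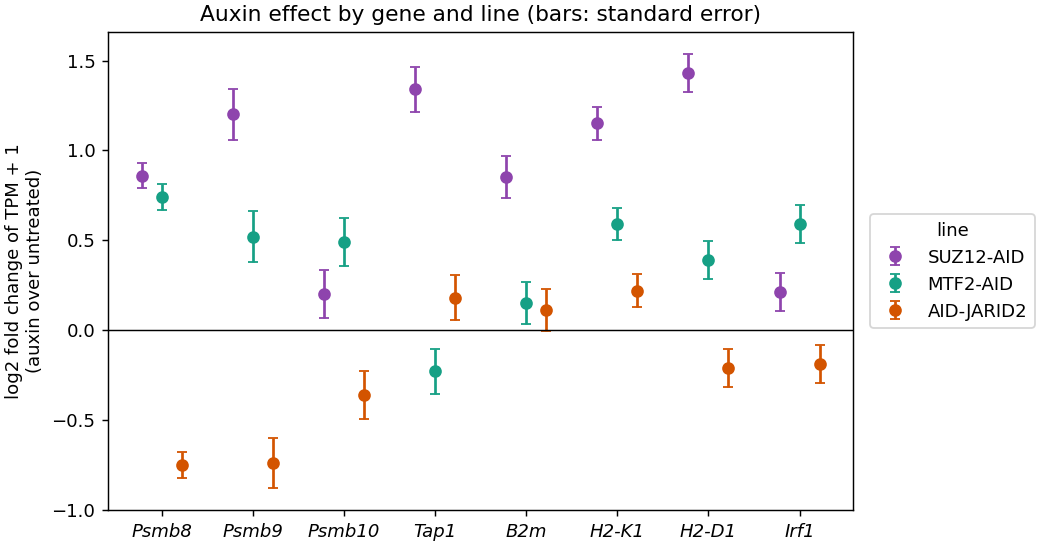
Log2 fold change of TPM + 1 with auxin over untreated (y axis) for the 8 fitted members in SUZ12-AID (purple), MTF2-AID (green) and AID-JARID2 (orange) cells, with bars of 1 standard error. Psmb8 stood at 0.86, 0.74 and -0.75 in these lines, and Tap1 at 1.34, -0.23 and 0.18.

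The untreated lines already differed in these genes. Setting untreated AID-JARID2 cells against untreated SUZ12-AID cells, 7 of the 9 members were higher without overlap, Nlrc5 was lower and Tap1 overlapped, where 34.1% of all genes tested were higher and 25.5% lower. Against untreated MTF2-AID cells, 7 were higher and Tap1 and Nlrc5 were lower, where 34.1% of all genes tested were higher and 36.0% lower. The median log2 difference of the 9 members was 1.08 over SUZ12-AID and 0.97 over MTF2-AID, beside 0.05 and -0.01 for all genes tested. Irf1 stood out by log2 fold changes of 2.20 over SUZ12-AID and 2.66 over MTF2-AID, Psmb8 by 1.65 and 2.23, Psmb9 by 1.68 and 1.62, and Psmb10 by 1.28 and 1.79. H2-K1 stood at 1.08 and 0.97, H2-D1 at 0.81 and 0.24, and B2m at 0.30 and 0.40. Tap1 stood at -0.02 and -0.14. The 2 comparisons share the untreated AID-JARID2 libraries. Setting untreated MTF2-AID against untreated SUZ12-AID, 3 members were higher, 3 were lower and 3 overlapped, where 30.6% of all genes tested were higher and 18.2% lower, with medians of 0.06 for the members and 0.07 for all genes. The 10 pluripotent cell markers summed to 791 to 796 TPM in untreated AID-JARID2 cells, against 179 to 199.6 TPM in untreated SUZ12-AID and 221 to 236 TPM in untreated MTF2-AID cells. Of these markers 4 were higher and 1 lower than in untreated SUZ12-AID cells, and 4 were higher and 5 lower than in untreated MTF2-AID cells. By the limma test below, untreated AID-JARID2 cells had 10 of 12 endothelial markers lower and 1 higher against each other untreated line. Of all genes tested, 12.4% and 17.6% were lower and 15.2% and 15.8% higher, against SUZ12-AID and MTF2-AID in turn. Kdr had 126.9 TPM in both untreated AID-JARID2 libraries, against 36.7 and 53.9 TPM in untreated SUZ12-AID and 68.9 and 71.4 TPM in untreated MTF2-AID. The 12 markers summed to 151 to 152 TPM, against 141 to 181 and 194 to 197 TPM. The part of these cell types in these differences was not tested.

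Across the 12 libraries the members fell along different patterns. Pearson's r on log2(TPM + 1) was 0.97 for Psmb10 with Irf1, 0.94 for Psmb8 with Psmb9 and 0.81 for Tap1 with B2m. It was -0.16 for Tap1 with Irf1 and -0.24 for Nlrc5 with Psmb10. Nlrc5 was nearest to Tap1, at 0.71. These are descriptions over 6 groups of 2 libraries, and the libraries share their lines and treatments. Among 10835 other genes averaging at least 5 TPM, those most like the members' mean were Parp12 (r = 0.96), Tnfsf9 (0.96), Tap2 (0.95), Capn1 (0.95), Cx3cl1 (0.94) and Stat6 (0.94), again over 12 libraries. Parp12 had 14.9 and 20.8 TPM in SUZ12-AID cells with auxin, against 7.24 and 8.44 TPM untreated, and 12.7 and 13.4 TPM in AID-JARID2 cells with auxin, against 18.1 and 19.1 TPM untreated.

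The other genes of the pathway were tested in 9 lists of 135 genes, 109 of which passed the filter of at least 1 TPM in at least 2 libraries. The test was limma on log2(TPM + 1) with Benjamini-Hochberg adjustment over all 15662 genes, called at an adjusted p under 0.05. In SUZ12-AID cells with auxin, 25 of the 109 rose and 1 fell, against 15.1% and 4.05% of all genes tested, with a median log2 fold change of 0.18 over these genes and 0.06 over all. Over all genes 2362 were higher and 635 lower. Scaling by the median of ratios gave 2096 higher and 1549 lower, and quantile normalization gave 1605 higher and 1417 lower. The calls rest on the spread shared across lines. With the 4 SUZ12-AID libraries alone, 0 of the 109 were called, and without SUZ12-AID auxin replicate 2, 9 rose and 0 fell. In MTF2-AID cells 0 of the 109 were called by limma, where 0.0447% of all genes tested were higher and 0.0192% lower. An unadjusted p under 0.05 was found for 19 of the 109 and for 9.51% of all genes tested. Over all genes the calls were 7 higher and 3 lower. Scaling by the median of ratios gave 9 higher and 7 lower, and quantile normalization gave 9 higher and 8 lower. More were lower than higher with a pseudocount of 5 (12 higher and 18 lower), without a filter on low values (9 higher and 12 lower), with a variance weight per line (55 higher and 109 lower) and without either untreated SUZ12-AID library (18 higher and 22 lower each). The median of the 109 was 0.10, beside 0.01 over all genes tested. In AID-JARID2 cells with auxin, 20 rose and 26 fell, against 19.5% and 17.0% of all genes tested, with medians of -0.06 over the 109 and 0.01 over all genes. The AID-JARID2 effect minus the SUZ12-AID effect was called lower for 33 of the 109 and higher for 5, where 15.0% of all genes tested, or 2354, were lower and 1410 higher. With quantile normalization 31 were lower and 10 higher. The AID-JARID2 effect minus the MTF2-AID effect was called lower for 24 and higher for 9, where 11.7% of all genes tested, or 1833, were lower and 1980 higher. The MTF2-AID effect minus the SUZ12-AID effect was called lower for 8 and higher for 1, where 9.11%, or 1427, were lower and 313 higher.

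**Figure D4:**
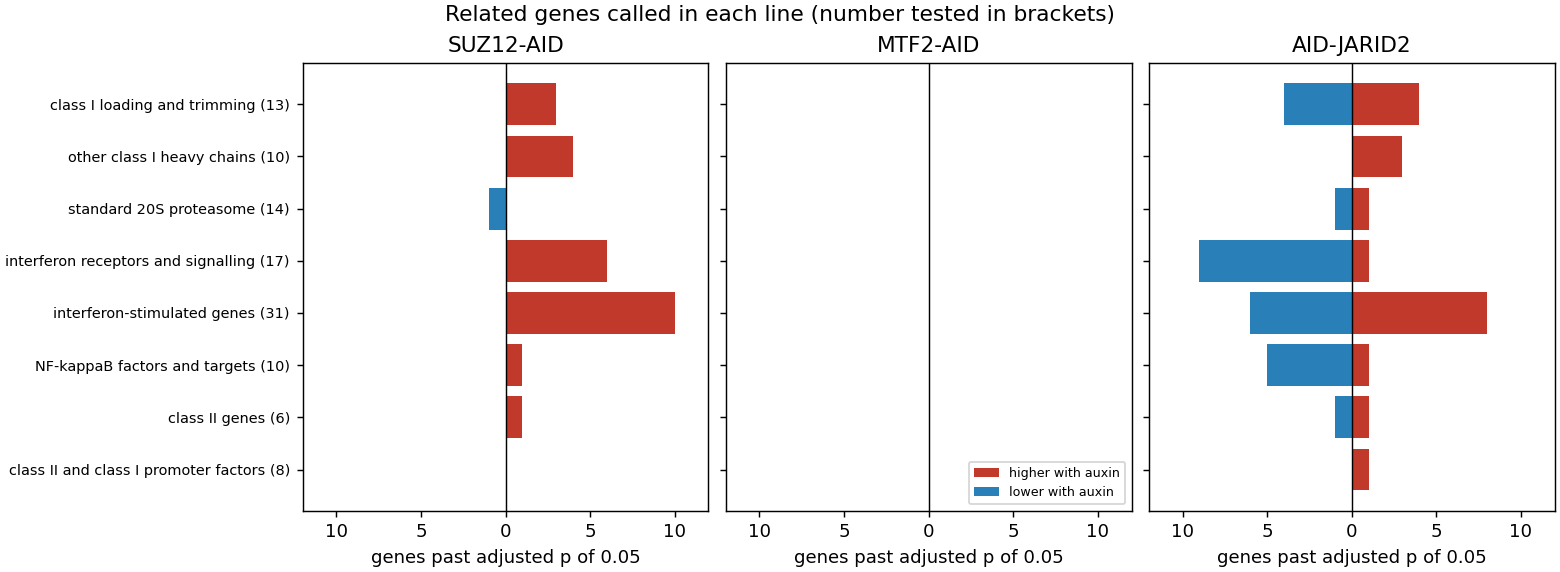
Number of related genes past the adjusted p threshold in each list (x axis, higher with auxin to the right in red and lower to the left in blue) for the SUZ12-AID, MTF2-AID and AID-JARID2 lines, with the number tested in brackets. The MTF2-AID panel is empty because 0 genes were called. The AID-JARID2 panel has 9 of 17 interferon receptor and signalling genes on the lower side, where 17.0% of all genes tested were lower.

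The list of class I loading and trimming held 13 genes, among them proteasome activators, an assembly factor and the class I-like molecules Cd1d1 and Mr1, for which no call was made in any line with auxin. Of the 13, 3 rose in SUZ12-AID cells with auxin and 0 fell, with a median of 0.17. Over all genes tested, 15.1% were higher and 4.05% lower. Tap2, the partner of Tap1, averaged 22.9 ± 3.64 TPM with auxin and 11.0 ± 0.775 TPM untreated (SD, n = 2 each; limma log2 fold change 0.99, adjusted p = 6.57e-04). Erap1, which trims peptides in the endoplasmic reticulum, and Pdia3, the loading complex disulfide isomerase, rose by 0.55 and 0.17. Their calls were lost in 4 and 5 of 21 alternatives, and the Tap2 call in 1, with the SUZ12-AID libraries alone. In AID-JARID2 cells with auxin, 4 rose and 4 fell, where 19.5% of all genes tested were higher and 17.0% lower. Tapbp, which bridges the transporter to class I molecules, averaged 121 ± 6.53 TPM with auxin and 183 ± 5.96 TPM untreated (SD, n = 2 each; limma log2 fold change -0.59, adjusted p = 0.00432). Its homologue Tapbpl fell by 0.60, with a call lost in 3 of the 21 alternatives, and Psme2, a subunit of the interferon-induced proteasome activator, fell by 0.49. Psme3, a nuclear proteasome activator, rose by 0.40.

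The non-classical and other class I heavy chains gave 4 higher and 0 lower calls among 10 tested in SUZ12-AID cells with auxin, with a median of 0.46. Over all genes tested, 15.1% were higher and 4.05% lower. H2-Q7 averaged 10.1 ± 1.54 TPM with auxin and 2.76 ± 0.328 TPM untreated (SD, n = 2 each; limma log2 fold change 1.55, adjusted p = 1.85e-04). H2-Q6 rose by 1.33 and H2-Q4 by 0.45, with calls lost in 3 and 8 of the 21 alternatives. The H2-Q7 call was lost in 1, with the SUZ12-AID libraries alone. In AID-JARID2 cells with auxin, 3 rose and 0 fell, where 19.5% of all genes tested were higher and 17.0% lower. H2-Q10 averaged 5.59 ± 0.747 TPM with auxin and 1.61 ± 0.619 TPM untreated (SD, n = 2 each; limma log2 fold change 1.35, adjusted p = 0.00173), and H2-Q7 rose by 0.55, with a call lost in 3 of the 21 alternatives. These genes belong to a multigene family, their identity to each other was not computed here, and how reads shared between related genes were assigned is not given in the sources used here, so their values are uncertain. Of the 14 standard subunits of the 20S proteasome, 0 rose and 1 fell in SUZ12-AID cells with auxin, namely Psmb5 (fell by 0.25), and 1 rose and 1 fell in AID-JARID2 cells with auxin, namely Psma7 (0.18) and Psmb1 (-0.26). The calls of Psmb5 and Psma7 were lost in 2 and 4 of the 21 alternatives.

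Of the 17 interferon receptors and signalling genes, 6 rose and 0 fell in SUZ12-AID cells with auxin, with a median of 0.19. Over all genes tested, 15.1% were higher and 4.05% lower. Stat3, Irf2 and the interferon-gamma receptor chain Ifngr1 rose by 0.63, 0.60 and 0.44, with calls lost in 2, 6 and 6 of the 21 alternatives. In AID-JARID2 cells with auxin, 1 of the 17 rose and 9 fell, with a median of -0.33. There 19.5% of all genes tested were higher and 17.0% lower. The other receptor chain, Ifngr2, averaged 8.25 ± 0.0222 TPM with auxin and 17.5 ± 2.11 TPM untreated (SD, n = 2 each; limma log2 fold change -0.99, adjusted p = 1.05e-04). The receptor kinases Jak2 and Tyk2 fell by 0.72 and 0.44, with the Tyk2 call lost when any 1 of the 4 AID-JARID2 libraries was left out, and the feedback inhibitor Socs3 fell by 0.79. The difference between the AID-JARID2 and SUZ12-AID effects was itself called lower for 8 of the 17 genes and higher for 0. Over all 15662 genes tested, it was called lower for 2354 and higher for 1410. No interferon gene passed the filter: 4 of the 8 listed were at 0 in all 12 libraries, and the highest value was 0.350 TPM, for Ifna4.

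Of the 31 interferon-stimulated genes tested, 10 rose and 0 fell in SUZ12-AID cells with auxin, with a median of 0.44. Over all genes tested, 15.1% were higher and 4.05% lower. Rsad2, an antiviral radical SAM enzyme, averaged 5.41 ± 2.02 TPM with auxin and 0.737 ± 0.118 TPM untreated (SD, n = 2 each; limma log2 fold change 1.85, adjusted p = 4.43e-04). Usp18, which removes the ubiquitin-like ISG15 from proteins, rose by 1.31, the guanylate-binding protein gene Gbp2 by 0.81 and Ifi35 by 0.71. The Ifi35 call was lost in 3 of the 21 alternatives. The Rsad2, Usp18 and Gbp2 calls were each lost in 1, with the SUZ12-AID libraries alone. In AID-JARID2 cells with auxin, 8 rose and 6 fell, with a median of -0.12. There 19.5% of all genes tested were higher and 17.0% lower. Ifitm1 averaged 102 ± 6.39 TPM with auxin and 512 ± 1.8 TPM untreated (SD, n = 2 each; limma log2 fold change -2.31, adjusted p = 2.08e-08). Usp18 fell by 1.28 and Lgals3bp by 0.85, while Ddx58, the viral RNA sensor RIG-I, rose by 0.93. The difference between the AID-JARID2 and SUZ12-AID effects was called lower for 12 of the 31 genes, and 1 was called higher. Over all 15662 genes tested, it was called lower for 2354 and higher for 1410.

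Interferon-stimulated genes also differed between the untreated lines. Against untreated SUZ12-AID cells, 24 of the 31 were higher and 2 lower, and 24 were higher and 2 lower against untreated MTF2-AID cells, where 15.2% and 15.8% of all genes tested were higher and 12.4% and 17.6% lower. The medians of the list were 0.84 and 1.05. Gbp2 and Parp9 were picked here after their values were seen, so they are given without p-values. Gbp2 averaged 94.1 ± 0.497 TPM in untreated AID-JARID2 cells and 24.3 ± 0.61 TPM in untreated SUZ12-AID cells (SD, n = 2 each), a log2 fold change of 1.91. Parp9 was higher than in untreated SUZ12-AID cells by 2.15 and than in untreated MTF2-AID cells by 2.55. Rsad2 was listed at 0 in both untreated AID-JARID2 libraries. Over all 109 related genes, 43 were higher and 6 lower than in untreated SUZ12-AID cells, and 44 were higher and 10 lower than in untreated MTF2-AID cells. Between untreated MTF2-AID and untreated SUZ12-AID cells, 4 were higher and 10 lower, where 5.50% of all genes tested were higher and 3.15% lower. Scaling by the median of ratios gave 2 higher and 12 lower, and quantile normalization 1 higher and 15 lower. Without AID-JARID2 untreated replicate 2, 30 were higher and 1 lower than in untreated SUZ12-AID cells.

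**Figure D5:**
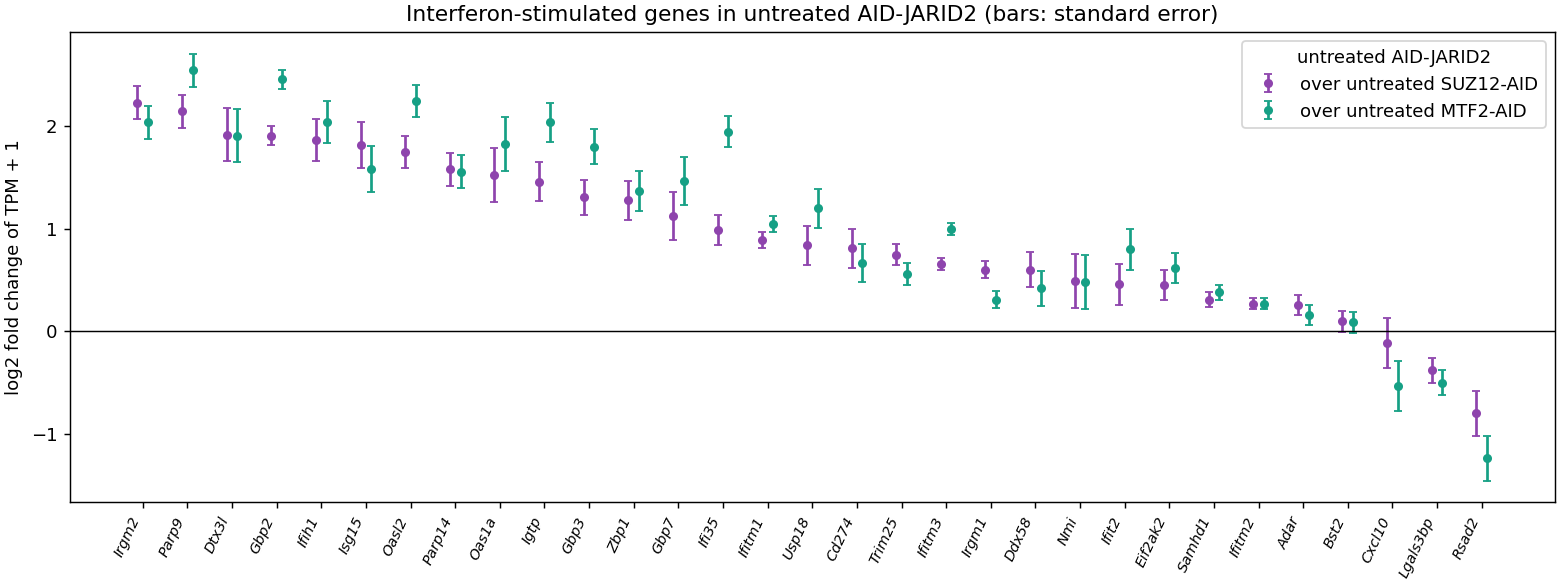
Log2 fold change of TPM + 1 (y axis) of the 31 interferon-stimulated genes tested in untreated AID-JARID2 cells over untreated SUZ12-AID (purple) and untreated MTF2-AID cells (green), with bars of 1 standard error, sorted by the comparison with SUZ12-AID. Gbp2 and Parp9 lie near the top in both comparisons, and Rsad2 and Lgals3bp lie below 0 in both.

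Of the 10 NF-kappaB factors and targets, 1 rose in SUZ12-AID cells with auxin, the adhesion molecule Icam1 (0.84), and 1 rose and 5 fell in AID-JARID2 cells with auxin. Icam1 was the gene that rose there too (1.32), while the inhibitor Nfkbia fell by 0.81, Relb by 0.80 and Nfkb1 by 0.51. The Icam1 call in SUZ12-AID cells was lost in 4 of the 21 alternatives. Over all genes tested, 15.1% were higher and 4.05% lower in SUZ12-AID cells with auxin. In AID-JARID2 cells with auxin, these shares were 19.5% and 17.0%. Of the 6 class II genes, H2-Ab1 rose by 1.30 in SUZ12-AID cells with auxin, with a call lost in 2 alternatives, and in AID-JARID2 cells with auxin 1 rose and 1 fell, with H2-Oa down by a log2 fold change of -1.53. Of the 8 factors that bind class I and class II promoters, 0 were called in SUZ12-AID cells and 1 rose in AID-JARID2 cells with auxin, Atf1 (0.40), whose call was lost in 2 of the 21 alternatives.

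Markers of other cell types moved with some of these results. By limma, 15.1% of all genes tested were higher and 4.05% lower in SUZ12-AID cells with auxin. These shares were 0.0447% and 0.0192% in MTF2-AID cells and 19.5% and 17.0% in AID-JARID2 cells. Of the 12 white blood cell markers, Tyrobp and Adgre1 were at 0 in all 12 libraries, and leaving out Cd68 the other 11 summed to 5.61 to 8.17 TPM in SUZ12-AID cells with auxin, against 3.76 to 4.09 TPM untreated. Cd68 itself rose in SUZ12-AID cells with auxin, with 57.1 and 70.2 TPM, against 36.9 and 39.2 TPM untreated. It also rose in AID-JARID2 cells with auxin, with 23.9 and 23.4 TPM, against 12.4 and 13.3 TPM untreated. In MTF2-AID cells Cd68 was lower with auxin, with 26.14 and 24.01 TPM, against 38.98 and 33.83 TPM untreated, but was not called. The other 11 markers summed to 2.33 to 3.61 TPM in AID-JARID2 cells with auxin, against 1.49 to 3.19 TPM untreated. In MTF2-AID cells they summed to 3.42 to 3.51 TPM with auxin, against 3.44 to 5.04 TPM untreated. These sums overlapped in both lines. The 12 endothelial markers summed to 241 to 246 TPM in SUZ12-AID cells with auxin, against 141 to 181 TPM untreated, and 11 of them rose and 1 fell. The sums were 132 to 141 TPM in MTF2-AID cells with auxin, against 194 to 197 TPM untreated, and 0 of the 12 were called. The sums in AID-JARID2 cells were 37.9 to 38.3 TPM with auxin, against 151 to 152 TPM untreated, but 3 of the 12 rose (Cd34, Esam and Robo4) and 2 fell (Kdr and Pecam1), with a median of 0.05. Kdr made up most of the untreated sum, with 19.2 and 15.03 TPM with auxin, against 126.9 and 126.9 TPM untreated. The 10 pluripotent cell markers summed to 3269 to 3316 TPM in AID-JARID2 cells with auxin, against 791 to 796 TPM untreated, and 9 rose and 1 fell. Of the 11 cardiac precursor markers tested, 10 fell and 0 rose in AID-JARID2 cells with auxin. The surface ectoderm markers summed to 4013 to 4446 TPM in SUZ12-AID cells with auxin, against 2371 to 2504 TPM untreated, and 8 of the 9 tested rose. In MTF2-AID cells the sums were 1911 to 1921 TPM with auxin, against 1548 to 1554 TPM untreated, and 1 rose. In AID-JARID2 cells the sums were 1674 to 1789 TPM with auxin, against 2175 to 2277 TPM untreated, but 6 rose and 2 fell. The pluripotent cell markers summed to 320.2 to 399 TPM in SUZ12-AID cells with auxin, against 179 to 199.6 TPM untreated, and 8 of 10 rose. The part of these cell types in the class I results was not tested.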

How the data were processed

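Polyadenylated RNA was sequenced from strand-specific dUTP libraries, per the labels' protocols. STAR 2.6.1d and the mm10 build are named in the submitters' processing notes, while no counter or annotation is named in those notes. The authors deposited TPM values per gene for 12 libraries in 1 table of 35856 rows, 2 of them repeated symbols, for which the first row was kept. Column names carry the group and replicate number. Every value above 0 fitted a whole number of reads (100% of 240285 values), which gave depth. The tolerance was 0.001 reads, and wider for genes with many reads. A gene above 0 in a single library fits by construction, so the 100% is no check for such genes.

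A gene entered the test if 2 or more libraries reached 1 TPM (15662 genes). limma 3.58.1 in R 4.3.3 was fitted to log2(TPM + 1) over all 6 groups with a trended prior, which left 6 residual degrees of freedom and a prior of 3.9. P-values were two-sided and adjusted by Benjamini-Hochberg over all genes kept, with a threshold of 0.05. Fold changes on this scale understate those of low genes.

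The members and lists were chosen with earlier results of these data known. All 9 members are named. From each related list and line, up to 4 called genes are named by size of change, if the higher group averaged 5 TPM or more. A gene that this rule names is not reported here. Parp9, and Gbp2 between untreated lines, were chosen after their values were seen. Alternatives covered the pseudocount, the filter, 2 rescalings, the variance model, a replicate block and leaving out each library.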

Additional observations from a re-analysis of the deposited data

Results flagged for a closer look

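The auxin effect differed between lines for many of the genes named above. Those genes were named for calls within the lines, which also make up these differences. Nothing is read from their number or direction. Each value below is the difference of 2 log2 fold changes, and the gene named had an adjusted p under 0.05 for that difference in limma's interaction contrast, except the members, whose differences were not tested.

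Over all 15662 genes tested, the AID-JARID2 effect minus the SUZ12-AID effect was called lower for 2354 and higher for 1410. This difference was below 0 for most of the genes named here. In peptide loading it was -1.22 for Tap2 (adjusted p = 8.97e-04 by limma), -0.98 for Tapbp, -0.97 for Tapbpl, -0.61 for Psme2 and 0.38 for Psme3. Among heavy chains it was -1.01 for H2-Q7 and -0.67 for H2-Q4. For standard proteasome subunits it was 0.28 for Psmb5 and 0.33 for Psma7. In interferon signalling it was -1.14 for Irf2, -1.03 for Ifngr2, -0.94 for Socs3, -0.91 for Jak2 and -0.89 for Stat3. Among interferon-stimulated genes it was -2.59 for Usp18, -2.44 for Ifitm1 (adjusted p = 5.75e-07 by limma), -1.72 for Rsad2, -1.06 for Ifi35 and -0.92 for Lgals3bp. It was -1.08 for Nfkbia and -0.72 for Relb, and for the class II genes -2.02 for H2-Oa and -1.20 for H2-Ab1. Among the members, both auxin libraries moved one way in one line and the other way in the other for Psmb8 (-1.60), Psmb9 (-1.94) and H2-D1 (-1.64), and these differences were not tested.

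The AID-JARID2 effect minus the MTF2-AID effect was -1.09 for Tapbp, -0.85 for Tapbpl, -0.72 for Psme2, -0.59 for Tap2, 0.32 for Pdia3 and 0.38 for Psme3. It was 1.21 for H2-Q10, -0.59 for H2-Q4 and -0.28 for Psmb1. In interferon signalling it was -1.14 for Ifngr2, -0.99 for Socs3 and -0.89 for Jak2. Among interferon-stimulated genes it was -2.32 for Ifitm1 (adjusted p = 4.95e-07 by limma), -1.53 for Usp18, -1.09 for Ifi35 and -0.91 for Lgals3bp. It was 1.49 for Icam1, -0.98 for Relb, -0.81 for Nfkbia, -0.67 for Nfkb1 and -1.68 for H2-Oa. The groups moved in opposite directions in the 2 lines for Psmb8 (-1.49), Psmb9 (-1.26), Psmb10 (-0.85), Irf1 (-0.78), H2-D1 (-0.61) and Tap1 (0.41). These differences were not tested. For Tap1 the groups were separated only by 22.62 against 22.52 TPM in AID-JARID2 cells and 21.9 against 22.6 TPM in MTF2-AID cells.

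The MTF2-AID effect minus the SUZ12-AID effect was -2.06 for Rsad2, -1.45 for H2-Q7, -1.06 for Usp18, -1.01 for Icam1, -0.79 for Irf2 and 0.40 for Psmb5. Tap1 was higher with auxin in SUZ12-AID cells and lower in MTF2-AID cells (-1.57), which was not tested.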

How the results depend on the processing

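The counts of related genes called in SUZ12-AID cells depended on the variance model. They came to 26 as reported, 12 with a variance weight per line and 0 with the libraries of that line alone, and the same alternatives gave 1194 and 156 calls over all genes. All 16 SUZ12-AID calls named lost their call with that line alone, and 21 of the 38 named calls were lost under at least 1 of 21 alternatives. In MTF2-AID cells the count of related genes was 0 as reported, 1 with a pseudocount of 5, with a filter of 5 TPM or with median-of-ratios scaling, and 3 with a variance weight per line. Over all genes it was 10 as reported, 6 with a pseudocount of 0.1, 30 with a pseudocount of 5, 21 without a filter, 16 with median-of-ratios scaling, 17 with quantile normalization, 164 with a variance weight per line and 0 with that line alone. The AID-JARID2 minus MTF2-AID difference was called for 33 related genes as reported, 50 with a variance weight and 52 with these lines alone. The MTF2-AID minus SUZ12-AID difference was called for 9, or 5 with a variance weight. Untreated MTF2-AID against untreated SUZ12-AID gave 14, or 9 with these lines alone. The cause of these shifts was not tested.

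Leaving out 1 library at a time, related genes called in SUZ12-AID cells ranged between 9 (without SUZ12-AID auxin replicate 2) and 30. They ranged between 0 and 2 for MTF2-AID and between 32 and 48 for AID-JARID2. For differences between lines they ranged between 27 and 42 for AID-JARID2 minus SUZ12-AID, 22 (without AID-JARID2 auxin replicate 1) and 44 for AID-JARID2 minus MTF2-AID, and 5 and 17 for MTF2-AID minus SUZ12-AID. Between untreated lines they ranged between 31 and 53 for AID-JARID2 over SUZ12-AID, 40 and 60 for AID-JARID2 over MTF2-AID, and 5 and 24 for MTF2-AID over SUZ12-AID. Over all genes the SUZ12-AID count ranged between 1322 and 3438, the MTF2-AID count between 3 and 40, and the AID-JARID2 count between 3697 and 6653. A lone library left in a group was assumed to vary like the other groups.

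The share of higher calls among all calls in SUZ12-AID cells was 78.8% as reported, 57.5% with median-of-ratios scaling and 53.1% with quantile normalization. No named call turned its sign under these alternatives, but in MTF2-AID cells lower calls outnumbered higher ones over all genes with a pseudocount of 5 (12 higher, 18 lower), without a filter (9 and 12), with a variance weight per line (55 and 109) and without either untreated SUZ12-AID library (18 and 22). Of 504 recomputed member values, 28 moved by more than the replicate spread, among them Irf1 (0.03 to 0.39) and Psmb10 (0.03 to 0.38) in SUZ12-AID cells and B2m (-0.00 to 0.30) and Tap1 (-0.36 to -0.09) in MTF2-AID cells. In AID-JARID2 cells H2-D1 ranged between -0.33 and -0.10, Tap1 between 0.09 and 0.27 and B2m between 0.04 and 0.19.

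The labels do not say whether same-numbered libraries of a line shared anything but the number. Their deviations correlated at 0.10 for the SUZ12-AID line, -0.04 for MTF2-AID and 0.01 for AID-JARID2. With 2 libraries per group, these values cannot show whether they shared a culture or a batch. With the replicate block, the SUZ12-AID line had 2541 genes higher and 792 lower, AID-JARID2 had 3385 and 2938, and MTF2-AID had 4 calls in all.

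Depth limits Nlrc5 (9 to 49 reads per library) and Psmb9 (16 to 90 reads) most.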
